A study of Homo sapiens with 12 samples.

Results

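DKK1, SFRP1, JAG1, HEY1 and HEY2 were followed in SK-N-BE(2) cells, an established neuroblastoma line with amplified MYCN, after exposure to a BET inhibitor, a histone deacetylase inhibitor or both. The 5 genes were taken by symbol from the array's probe annotation, out of 14884 genes with a symbol, and each was represented by 1 transcript cluster, the probe group of a single transcribed locus. The 4 groups were 1 µM JQ1 with 10 nM panobinostat (the combination), 10 nM panobinostat alone, 1 µM JQ1 alone, and vehicle, each for 6 h and each with 3 arrays. JQ1 displaces BET proteins from acetylated histones, and panobinostat blocks the enzymes that remove histone acetyl groups. All groups came from 1 cell line at 1 time and 1 dose per compound, and nothing in the labels tells whether replicates were separate cultures.

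WNT proteins are secreted signals that bind Frizzled receptors with the co-receptors LRP5 and LRP6 and stabilise beta-catenin, which acts with TCF/LEF factors on target genes. DKK1 blocks this signal by binding LRP5 and LRP6, and SFRP1 binds WNT proteins and Frizzled receptors outside the cell. In the NOTCH pathway, a ligand such as JAG1 on a neighbouring cell triggers cleavage of a NOTCH receptor, whose intracellular part joins the DNA-binding protein RBPJ and Mastermind coactivators. HEY1 and HEY2 are basic helix-loop-helix repressors switched on by that complex. In the sympathetic lineage from which neuroblastoma arises, NOTCH signalling is known to hold back neuronal differentiation.

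The windows just upstream of the transcript start are shown for DKK1, JAG1 and HEY2, the 3 of 5 members matched in the RefSeq promoter table (build GRCh38.p14). They are chr10:52314031-52314280 on the plus strand for DKK1, chr20:10674000-10674249 on the minus strand for JAG1 and chr6:125749382-125749631 on the plus strand for HEY2. Each covers 250 bases, written 5′ to 3′. Capitals mark the letters of a searched motif on either strand.
DKK1: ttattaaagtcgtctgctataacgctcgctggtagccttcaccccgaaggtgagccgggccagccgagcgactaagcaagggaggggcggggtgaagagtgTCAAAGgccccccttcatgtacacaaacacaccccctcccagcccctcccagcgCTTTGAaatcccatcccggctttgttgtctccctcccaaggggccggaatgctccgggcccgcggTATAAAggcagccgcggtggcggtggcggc
JAG1: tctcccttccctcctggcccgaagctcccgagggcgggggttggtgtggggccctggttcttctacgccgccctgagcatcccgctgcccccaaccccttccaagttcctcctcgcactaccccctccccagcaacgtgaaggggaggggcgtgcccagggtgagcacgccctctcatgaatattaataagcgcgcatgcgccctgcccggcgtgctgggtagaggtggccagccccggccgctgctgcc
HEY2: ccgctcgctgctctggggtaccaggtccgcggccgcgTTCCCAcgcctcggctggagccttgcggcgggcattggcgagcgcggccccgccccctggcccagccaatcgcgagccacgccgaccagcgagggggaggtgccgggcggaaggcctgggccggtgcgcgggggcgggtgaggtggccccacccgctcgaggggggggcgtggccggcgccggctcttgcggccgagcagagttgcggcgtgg
The motifs searched, with their known binders, were the RBPJ core TGGGAA, the E-box CACGTG of MYC and HEY proteins, the TCF/LEF core CTTTGA and, added after the sequences were seen, the core promoter motif TATAAA. DKK1 held the TCF/LEF core once on each strand, 95 to 90 and 149 to 144 bases upstream of the start, and the core promoter motif 30 to 25 bases upstream. HEY2 held the RBPJ core on the opposite strand, 213 to 208 bases upstream. None of the searched motifs occurred in the JAG1 window, and the matches did not overlap. Of 35116 such windows, 20.8% held the RBPJ core, 6.34% the E-box, 11.2% the TCF/LEF core and 10.7% the core promoter motif. The HEY2 window had 79.2% G and C, JAG1 68.4% and DKK1 62.8%, against a median of 58.0% over all windows.

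The deposited values were taken as log2 signal. Over the 14884 genes, arrays of the same group correlated at 0.991 to 0.995 and arrays of different groups at 0.962 to 0.989, and no library stood apart from its label. All 8 measured markers of sympathetic neuroblasts were above the median gene in every group, with their mean over the list at 9.95 with the combination, 10.20 with panobinostat, 10.59 with JQ1 and 10.67 with vehicle. The 3 measured endothelial markers and the 1 leukocyte marker lay below the median gene. Of 3 measured markers of Schwann cells or glia, SOX10 lay above it in every group, at 7.60 with the combination, 7.49 with panobinostat, 7.27 with JQ1 and 7.42 with vehicle. Of 2 measured mesenchymal markers, DCN was dim in all groups and LUM was bright, at 11.40 with the combination, 11.73 with panobinostat, 11.48 with JQ1 and 11.81 with vehicle. The part of this spread in the results below was not tested. Fewer cells with a transcript and less RNA per cell cannot be told apart in such bulk samples.

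All changes below are given as log2 values ± SE in the limma fit (n = 3 arrays in each group). P-values were adjusted over all 14884 genes by the Benjamini-Hochberg method, with a call at an adjusted p under 0.05. With the combination 4 of the 5 genes were called against vehicle, DKK1 and HEY1 lower and JAG1 and HEY2 higher, where 37.7% of all genes were called. With panobinostat alone 5 of 5 were called against a background of 29.3%. With JQ1 alone 2 of 5 were called, DKK1 lower and JAG1 higher, against a background of 17.6%. At an unadjusted p under 0.05, 4 of 5 passed with the combination (44.2% of all genes), 5 of 5 with panobinostat (38.8%) and 5 of 5 with JQ1 (29.1%). The arrays did not overlap those of vehicle for 4 of 5 genes with the combination, 5 of 5 with panobinostat and 5 of 5 with JQ1, where this held for 46.1%, 39.8% and 33.5% of all genes. The median change of all genes was 0.02 with the combination, 0.03 with panobinostat and 0.01 with JQ1. The members were chosen with earlier results of these data known. Member counts beside shares of all genes, here and below, are therefore a description and no test of the group.

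**Figure D1:**
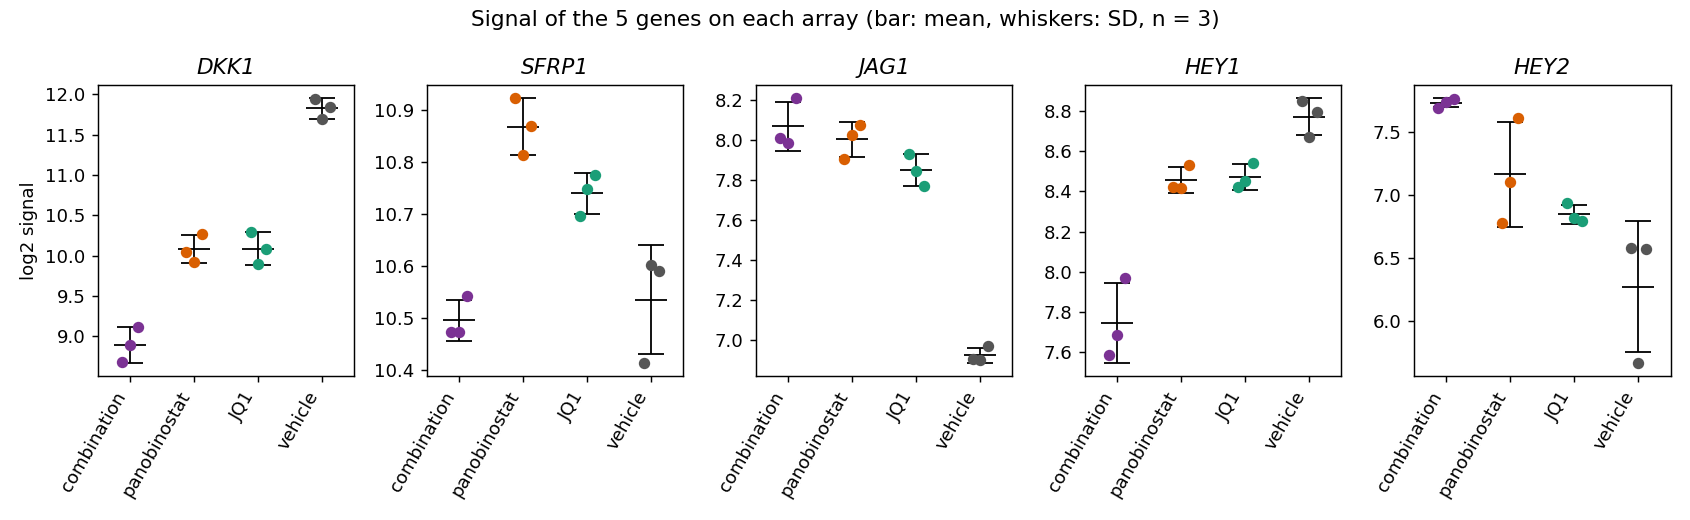
Log2 signal (vertical axis) of the 5 genes on each of the 12 arrays by group, with points for arrays, a bar for the mean and whiskers for the SD of 3 arrays. DKK1 and HEY1 lie lowest with the combination and highest with vehicle, JAG1 and HEY2 the other way round, and SFRP1 lies highest with panobinostat.

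DKK1 (cluster 16705011) had the largest response of the group. With the combination its log2 signal was 8.68, 8.89 and 9.11, with panobinostat 10.05, 9.93 and 10.27, with JQ1 10.29, 9.89 and 10.08, and with vehicle 11.94, 11.69 and 11.85. All combination arrays lay below all single-compound arrays, which in turn lay below all vehicle arrays, while the panobinostat and JQ1 arrays overlapped. DKK1 was 7.63-fold lower with the combination than with vehicle (-2.93 ± 0.14, adjusted p = 3.5e-08), the rank 5 change in size among 14884 genes. It fell 3.35-fold with panobinostat (-1.74 ± 0.14, adjusted p = 4.13e-06), which ranked 19, and about as far with JQ1 (-1.74 ± 0.14, adjusted p = 1.18e-05), which ranked 8. The difference between panobinostat and JQ1 was -0.01 with a 95% interval of -0.30 to 0.29.

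Each compound lowered DKK1 further in the presence of the other. The combination was 2.29-fold below JQ1 (-1.19 ± 0.14, adjusted p = 8.02e-05) and 2.28-fold below panobinostat (-1.19 ± 0.14, adjusted p = 0.000251). The sum of the single changes was -3.48, so the measured -2.93 fell short of it by 0.55 ± 0.19, a departure that was not called (adjusted p = 0.222). DKK1 and HEY1 were called in the same direction against vehicle, JQ1 and panobinostat, as were 7% of all genes.

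SFRP1 (cluster 17076609), the other secreted WNT antagonist, moved within a narrow range of 0.51 over all 12 arrays. Its log2 signal was 10.47, 10.47 and 10.54 with the combination, 10.92, 10.81 and 10.87 with panobinostat, 10.70, 10.75 and 10.77 with JQ1, and 10.41, 10.60 and 10.59 with vehicle. The panobinostat arrays were all above the JQ1 arrays, and the JQ1 arrays all above vehicle, whereas combination and vehicle arrays overlapped. With panobinostat SFRP1 rose 1.26-fold (0.33 ± 0.07, adjusted p = 0.00332). With JQ1 the value was 0.20 ± 0.07 (adjusted p = 0.0645). The combination left it at -0.04 ± 0.07 (adjusted p = 0.712, 95% interval -0.19 to 0.11). The combination lay below panobinostat by a log2 change of -0.37 ± 0.07 (adjusted p = 0.0042) and below JQ1 by -0.24 ± 0.07 (adjusted p = 0.0222).

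For SFRP1 the sum of the single changes was 0.54, and the combination departed from it by -0.58 ± 0.10 (adjusted p = 0.0239). That departure was not called when JQ1 replicate 1, 2 or 3, combination replicate 1, 2 or 3, or panobinostat replicate 1 or 3 was left out, with values from -0.60 to -0.55 in these cases. The call of the combination against JQ1 was lost without JQ1 replicate 2 (-0.24) or 3 (-0.23) or without combination replicate 1 (-0.23) or 2 (-0.23).

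JAG1 (cluster 16917183), the NOTCH ligand of the group, was higher with each treatment. Its log2 signal was 8.01, 7.99 and 8.21 with the combination, 7.91, 8.03 and 8.08 with panobinostat, 7.93, 7.85 and 7.77 with JQ1, and 6.91, 6.90 and 6.97 with vehicle. Every treated array lay above every vehicle array, and the combination arrays all lay above the JQ1 arrays, while the panobinostat arrays overlapped both. JAG1 rose 2.21-fold with the combination (1.14 ± 0.08, adjusted p = 5.93e-07), 2.11-fold with panobinostat (1.08 ± 0.08, adjusted p = 3.01e-06) and 1.90-fold with JQ1 (0.93 ± 0.08, adjusted p = 2.43e-05).

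The second compound made no called difference to JAG1. The combination was above JQ1 by 0.22 ± 0.08 (adjusted p = 0.0663, 95% interval 0.04 to 0.39) and above panobinostat by 0.06 ± 0.08 (adjusted p = 0.669, 95% interval -0.11 to 0.24). The sum of the single changes was 2.00, and the measured 1.14 departed from it by -0.86 ± 0.11 (adjusted p = 0.0107), rank 63 in size of 14884 departures. A departure was called for 2 of the 5 genes, JAG1 and SFRP1, and for 0.759% of all genes. At an unadjusted p under 0.05, 4 of 5 passed, against 13.7% of all genes. With both the variance moderation and the adjustment taken over all 53617 clusters of the table, the adjusted p of the JAG1 departure was 0.0554 and that of SFRP1 0.115.

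**Figure D2:**
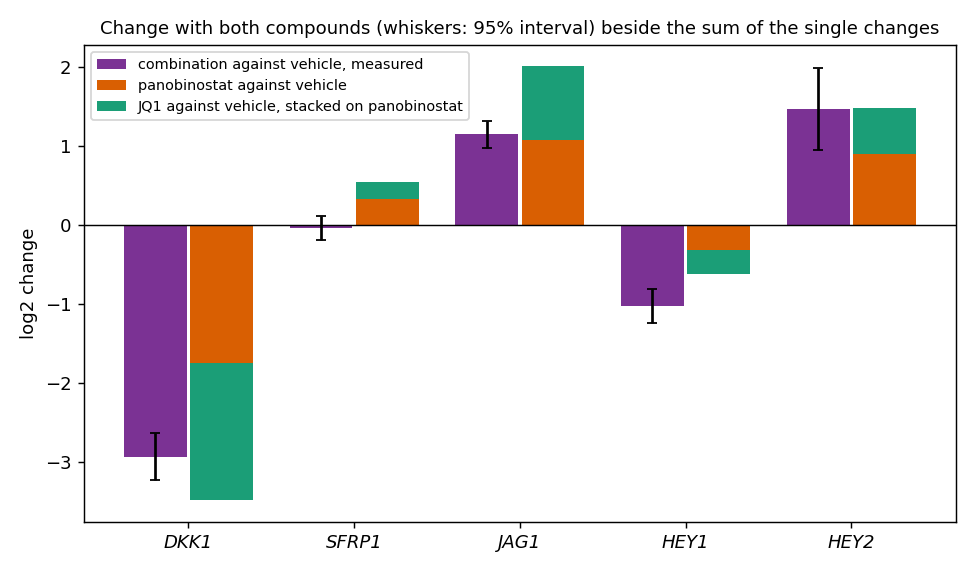
Log2 change against vehicle (vertical axis) with the combination, with its 95% interval, beside the stacked changes with panobinostat and JQ1 for each gene. The combination falls short of the stacked changes for JAG1 (1.14 against 2.00) and equals them for HEY2 (1.47 in each case), where leaving out vehicle replicate 2 gives a departure of 0.29.

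The target genes HEY1 and HEY2 changed in opposite directions. HEY1 (cluster 17078452) had log2 signals of 7.59, 7.68 and 7.97 with the combination, 8.42, 8.42 and 8.53 with panobinostat, 8.42, 8.45 and 8.54 with JQ1, and 8.85, 8.67 and 8.79 with vehicle. The combination arrays lay below all other arrays, the vehicle arrays above all others, and the panobinostat and JQ1 arrays overlapped. HEY1 fell 2.04-fold with the combination (-1.03 ± 0.10, adjusted p = 5.58e-06). With panobinostat the fall was smaller (-0.32 ± 0.10, adjusted p = 0.0283) and with JQ1 the value was -0.30 ± 0.10 (adjusted p = 0.0521).

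The combination lowered HEY1 beyond either compound, by -0.72 ± 0.10 against JQ1 (adjusted p = 0.000227) and by -0.71 ± 0.10 against panobinostat (adjusted p = 0.000672). The measured -1.03 exceeded the sum of the single changes, -0.62, by -0.41 ± 0.14, which was not called (adjusted p = 0.2). The panobinostat call was lost without vehicle replicate 1 (-0.28) or 3 (-0.31) or panobinostat replicate 1 (-0.30) or 2 (-0.30). The JQ1 value was called without combination replicate 1 or 3, which left it at -0.30.

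HEY2 (cluster 17012304) had log2 signals of 7.70, 7.74 and 7.77 with the combination, 6.78, 7.11 and 7.61 with panobinostat, 6.93, 6.82 and 6.79 with JQ1, and 6.58, 5.67 and 6.57 with vehicle. Each treated group lay wholly above vehicle and the combination above all others, with a wide spread among panobinostat arrays and a single low vehicle array. In vehicle HEY2 (mean 6.27) stood at percentile 30.7 of all genes and JAG1 (mean 6.93) at 44.1. Whether these vehicle signals exceed background is unknown. HEY2 rose 2.76-fold with the combination (1.47 ± 0.24, adjusted p = 0.000354) and 1.86-fold with panobinostat (0.90 ± 0.24, adjusted p = 0.0131). With JQ1 the value was 0.58 ± 0.24 (adjusted p = 0.123). The sum of the single changes was 1.47, and the departure from it was -0.01 ± 0.33 (adjusted p = 0.994, 95% interval -0.74 to 0.72).

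The combination was above JQ1 in HEY2 by 0.89 ± 0.24 (adjusted p = 0.0162) and above panobinostat by 0.57 ± 0.24 (adjusted p = 0.139). These SE come from 1 spread shared by the 4 groups, not from the groups compared alone. The SD of HEY2 was 0.52 in vehicle and 0.42 in panobinostat, against 0.08 in JQ1 and 0.04 in the combination. Vehicle replicate 2 was the low array. Without it HEY2 was higher by 1.16 with the combination (adjusted p = 0.000486) and by 0.60 with panobinostat (adjusted p = 0.0339), the value with JQ1 was 0.28 (adjusted p = 0.388), and the combination was called above panobinostat (0.57, adjusted p = 0.0408). The departure from the summed single changes was then 0.29 ± 0.24 (adjusted p = 0.698). The panobinostat call was lost without panobinostat replicate 3 (0.67, adjusted p = 0.0523). Whether probes of the HEY1 and HEY2 clusters also bind the other gene's transcript was not tested.

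**Figure D3:**
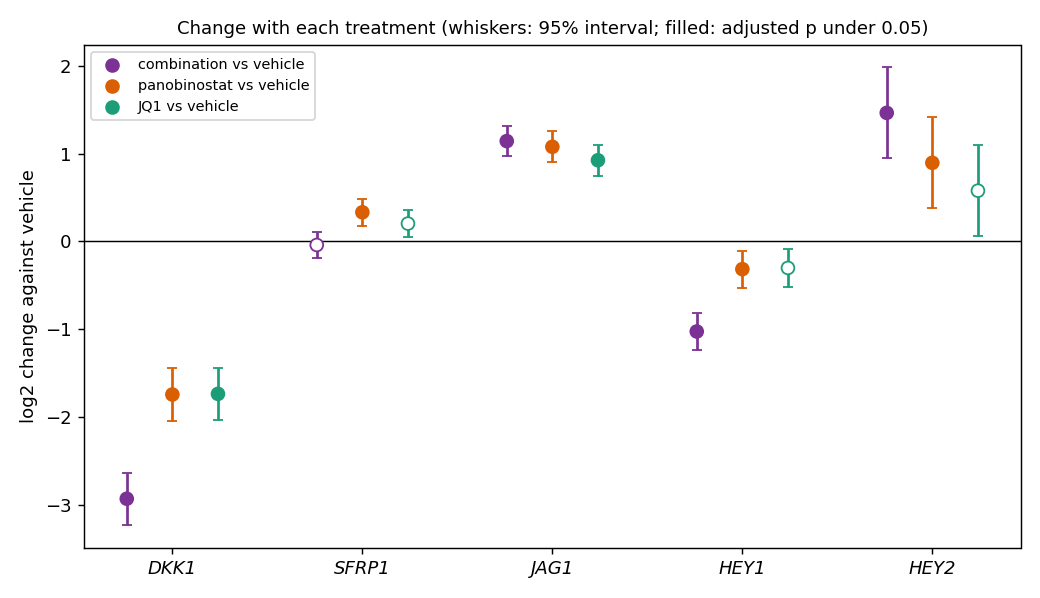
Log2 change against vehicle (vertical axis) of each gene with the combination, panobinostat and JQ1, with 95% intervals, where filled points had an adjusted p under 0.05. DKK1 and HEY1 lie below 0 and JAG1 and HEY2 above 0 in all 3 comparisons, and SFRP1 lies at -0.04 with the combination.

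Panobinostat and JQ1 were also set against each other. None of the 5 genes was called by limma (0 of 5, also 0 of 5 at an unadjusted p under 0.05), where 23.3% of all genes were called and 34.7% had an unadjusted p under 0.05. The differences were -0.01 for DKK1 and for HEY1, 0.13 for SFRP1, 0.15 for JAG1 and 0.32 for HEY2. The 95% intervals reached 0.28 for SFRP1, 0.33 for JAG1 and 0.83 for HEY2. The combination differed from JQ1 in 4 of 5 genes, against 25.6% of all genes, and from panobinostat in 3 of 5, against 14.7%.

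The genes whose log2 signal followed each member most closely over the 12 arrays were sought among 11915 other protein-coding genes, with Pearson's r as a description of shared group differences and shared arrays. For DKK1 they were SGPP2, a sphingosine-1-phosphate phosphatase (r = 0.996), MRPL15, a mitochondrial ribosomal protein (0.996), and LRRTM1, a synaptic adhesion protein (0.992). HEY1 was closest to SNAI2, a neural crest transcription factor (0.990), E2F2, an activator of S-phase genes (0.983), and JMJD1C, a jumonji-domain protein (0.981). SNAI2 was at -0.97 with the combination, -0.34 with panobinostat and -0.31 with JQ1, and E2F2 at -1.15, -0.41 and -0.51. For JAG1 they were GLCE, an enzyme of heparan sulfate synthesis (0.985), SLIT2, an axon guidance ligand (0.984), and PCYOX1, a prenylcysteine oxidase (0.981).

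SLIT2 was at 1.69 with the combination, 1.43 with panobinostat and 1.25 with JQ1. Since SLIT2 was picked for its likeness to JAG1, these values are a description. HEY2 was closest to HSDL2 (0.987), GGNBP2 (0.974) and FBXL12, an F-box protein (0.972). SFRP1 had weaker neighbours, CCDC62 (0.898), the metallothionein MT1B (0.897) and the pregnancy-specific glycoprotein PSG5 (0.894). MT1B and PSG5 belong to families of near-identical genes, so their signal is uncertain. Once group means were removed, r was 0.34 to 0.70 for the JAG1 neighbours and 0.59 to 0.61 for those of SFRP1, against 0.60 to 0.89 for DKK1, 0.70 to 0.91 for HEY1 and 0.89 to 0.96 for HEY2. All neighbours were picked on these same 12 arrays, which raises these values too. The SD of HEY2 was 0.52 in vehicle and 0.42 in panobinostat, against 0.08 in JQ1 and 0.04 in the combination. A few deviating arrays therefore weigh on its r.

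The rest of the WNT and NOTCH pathways was described through 10 lists, of which 105 of 142 listed genes were measured. Among all genes, 18.2% were called higher and 19.5% lower with the combination, 14.5% and 14.8% with panobinostat, and 8.18% and 9.47% with JQ1. With median centring the panobinostat calls split into 1441 higher and 2310 lower, in place of 2161 and 2202. Counts below are given beside these shares and without a test of the list. Of the genes named below as higher with the combination, the dimmest with vehicle besides HEY2 were FZD9 (5.90), DLL1 (6.09), MYC (6.17), DNER (6.18) and KAT2B (6.19). The median gene mean was 7.24, and whether these dim signals exceed background is unknown.

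Among 14 measured secreted WNT antagonists, DKK1 and SFRP1 included, 1 was called higher and 5 lower with the combination (median -0.07). With panobinostat 2 were higher and 3 lower (median -0.01), and with JQ1 0 were higher and 3 lower (median -0.13). FRZB, a secreted Frizzled-related protein, fell by 1.62 ± 0.12 with the combination, 1.00 ± 0.12 with panobinostat and 1.11 ± 0.12 with JQ1. DKK2, a relative of DKK1, fell by 1.11 ± 0.28 with the combination and 1.29 ± 0.28 with JQ1, and was at -0.52 ± 0.28 with panobinostat (adjusted p = 0.206). DKK3, a divergent member of that family, rose by 0.61 ± 0.10 with the combination and 0.33 ± 0.10 with panobinostat, and was at -0.20 ± 0.10 with JQ1 (adjusted p = 0.206). SFRP5 was at 0.05 ± 0.11 with the combination (adjusted p = 0.772).

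Of the WNT ligands only WNT2 was analysed here, at 0.33 ± 0.14 with the combination (adjusted p = 0.0743). Among 20 WNT receptors and co-receptors 7 were higher and 5 lower with the combination (median 0.04), 6 and 3 with panobinostat, and 4 and 4 with JQ1. After that centring the panobinostat count became 3 higher and 4 lower. LRP5, a co-receptor that DKK1 binds, fell by 1.05 ± 0.07 with the combination, 0.43 ± 0.07 with panobinostat and 0.39 ± 0.07 with JQ1. LRP6, the other co-receptor that DKK1 binds, named after its values were seen, rose by 0.35 ± 0.10 with the combination (adjusted p = 0.0166). LRP6 was at 0.07 ± 0.10 with panobinostat (adjusted p = 0.687) and 0.25 ± 0.10 with JQ1 (adjusted p = 0.119). FZD3, a Frizzled receptor of axon tracts, fell by 0.87 ± 0.08 with the combination and 0.46 ± 0.08 with panobinostat, and was at -0.04 with JQ1. The Frizzled receptors FZD9 (0.97 ± 0.12) and FZD8 (0.65 ± 0.11) rose with the combination. RYK, a WNT-binding receptor with a kinase-like domain, was at -0.17 ± 0.08 with the combination (adjusted p = 0.127) and at -0.10 ± 0.08 with JQ1 (adjusted p = 0.445), and fell by 0.32 ± 0.08 with panobinostat (adjusted p = 0.00888).

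In WNT signal transduction 2 of 10 measured genes were higher and 3 lower with the combination (median -0.09), 1 and 4 with panobinostat, and 1 and 1 with JQ1. The beta-catenin cofactors of the Pygopus family moved apart. PYGO1 fell by 2.17 ± 0.17 with the combination and fell by 1.60 ± 0.17 with panobinostat, whereas PYGO2 rose by 0.64 ± 0.07 with the combination and 0.39 ± 0.07 with JQ1. BCL9, which bridges Pygopus and beta-catenin, fell by 0.56 ± 0.06, 0.35 ± 0.06 and 0.54 ± 0.06 with the combination, panobinostat and JQ1. The kinase GSK3B rose by 0.31 ± 0.07 with the combination. BTRC, which marks beta-catenin for degradation, was at 0.15 ± 0.08 with the combination (adjusted p = 0.145) and 0.21 ± 0.08 with JQ1 (adjusted p = 0.0855), and fell by 0.25 ± 0.08 with panobinostat (adjusted p = 0.0298). With quantile normalization BTRC was called higher with the combination (0.175, adjusted p = 0.026) and with JQ1 (0.21, adjusted p = 0.0201).

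Of 10 measured WNT target genes, 2 were called higher and 1 lower with the combination (median 0.03), 0 and 1 with panobinostat, and 1 and 0 with JQ1. CCND1, which encodes the G1 regulator cyclin D1, fell by 1.37 ± 0.08 with the combination and 0.80 ± 0.08 with panobinostat, and was at -0.21 ± 0.08 with JQ1 (adjusted p = 0.0861). NKD1, a feedback inhibitor of the pathway, rose by 0.40 ± 0.11 with the combination and 0.67 ± 0.11 with JQ1. MYC was at 0.35 ± 0.13 with the combination (adjusted p = 0.0469), a call that ended with quantile normalization (0.31) and with median centring (0.31). ZNRF3, a ligase that removes Frizzled receptors, was at 0.20 ± 0.11 (adjusted p = 0.18).

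**Figure D4:**
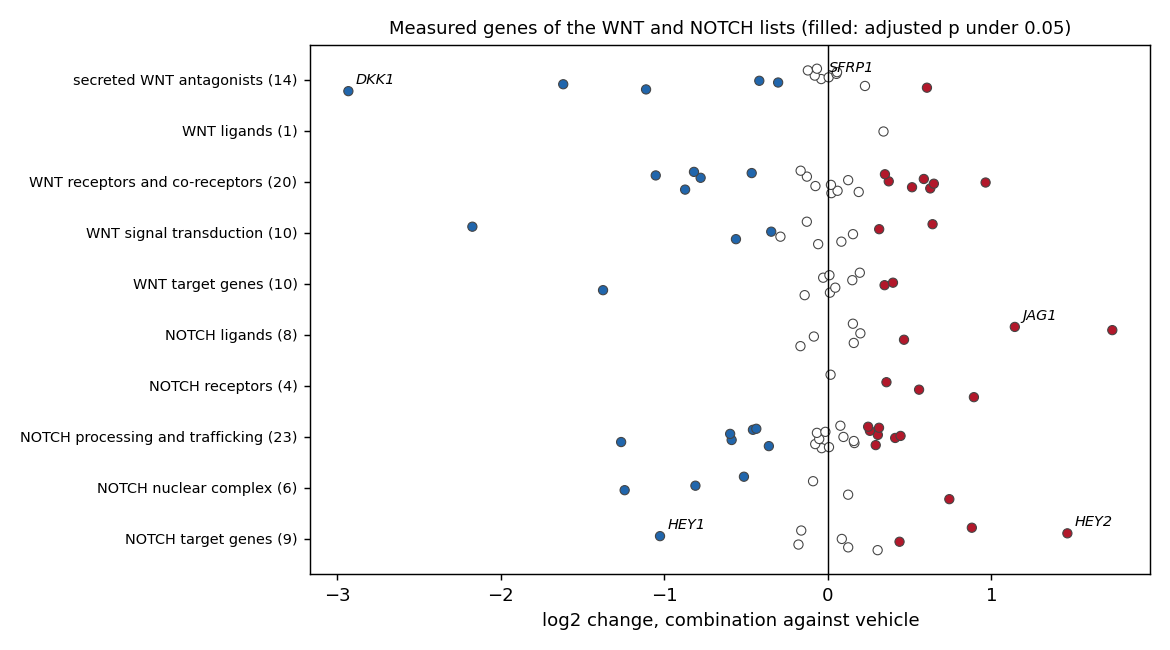
Log2 change with the combination against vehicle (horizontal axis) of each measured gene in the 10 WNT and NOTCH lists (rows, with the number measured), filled where the adjusted p was under 0.05. DKK1 is the lowest secreted WNT antagonist at -2.93, and HEY1 and HEY2 are the lowest and highest NOTCH target genes at -1.03 and 1.47.

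Among 8 NOTCH ligands, JAG1 included, 3 were higher and 0 lower with the combination (median 0.18), 3 and 0 with panobinostat, and 2 and 0 with JQ1. DNER, a non-canonical ligand of neurons, rose by 1.74 ± 0.14 with the combination, 0.73 ± 0.14 with panobinostat and 0.62 ± 0.14 with JQ1. DLL1, a canonical ligand, rose by 0.47 ± 0.11 with the combination and 0.45 ± 0.11 with panobinostat, and was at -0.05 with JQ1 (adjusted p = 0.823). DLK1 was at -0.17 ± 0.19 with the combination (adjusted p = 0.55). Of the 4 receptors, 3 were higher and 0 lower with the combination (median 0.46) and with panobinostat (median 0.36), and 1 was higher with JQ1 (median 0.10). NOTCH1 rose by 0.89 ± 0.10 with the combination, 0.54 ± 0.10 with panobinostat and 0.36 ± 0.10 with JQ1. NOTCH2 rose by 0.56 ± 0.09 with the combination, and NOTCH4 was at 0.02 ± 0.14 (adjusted p = 0.945).

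Genes of NOTCH processing and trafficking were called higher in 7 of 23 cases and lower in 6 with the combination (median 0.01), in 4 and 2 with panobinostat, and in 2 and 2 with JQ1. After median centring the panobinostat count was 1 higher and 2 lower. DTX3, a Deltex ligase, fell by 1.26 ± 0.13 with the combination, 0.83 ± 0.13 with panobinostat and 0.80 ± 0.13 with JQ1, and NCSTN, a subunit of the gamma-secretase that cleaves NOTCH, fell by 0.60 ± 0.07 with the combination. MIB1, which activates ligands by ubiquitination, rose by 0.45 ± 0.11, and LFNG, a glycosyltransferase that modifies NOTCH, by 0.41 ± 0.12. ITCH, a ligase that acts on NOTCH, was at -0.05 ± 0.06 (adjusted p = 0.586).

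In the nuclear complex 1 of 6 measured genes was higher and 3 were lower with the combination (median -0.30), 1 and 2 with panobinostat, and 2 and 2 with JQ1. The Mastermind coactivators MAML2 and MAML3 fell by 1.24 ± 0.11 and 0.81 ± 0.06 with the combination. MAML1, the other measured Mastermind gene, named after its values were seen, was at 0.12 ± 0.08 with the combination (adjusted p = 0.256) and -0.07 ± 0.08 with panobinostat (adjusted p = 0.581), and rose by 0.42 ± 0.08 with JQ1 (adjusted p = 0.0033). The acetyltransferase KAT2B rose by 0.74 ± 0.08, and RBPJ itself was at -0.09 ± 0.07 (adjusted p = 0.392). Of 9 measured NOTCH target genes, HEY1 and HEY2 included, 3 were higher and 1 was lower with the combination (median 0.13), 1 and 1 with panobinostat, and 2 and 0 with JQ1. NRARP, a feedback inhibitor of NOTCH, rose by 0.88 ± 0.09 with the combination and 0.65 ± 0.09 with JQ1, and was at 0.18 ± 0.09 with panobinostat (adjusted p = 0.174). HES6, a relative of the HES repressors that is counted in this list, rose by 0.44 ± 0.09 with the combination and 0.61 ± 0.09 with JQ1. Whether NOTCH acts on HES6 was not tested. HES4 was at 0.13 ± 0.15 with the combination (adjusted p = 0.578).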

How the data were processed

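RNA of SK-N-BE(2) cells had been profiled with a biotin label on Affymetrix Human Gene 2.0 ST arrays, 12 in all. The deposited values are taken as log2 signal, since they run from 1.39 to 14.1 with array medians of 6.12 to 6.29. The log base is not stated, and every fold change depends on it being 2. The submitters' processing notes name MAS5 and affy. How background, normalization and build were handled is not given in the sources used here. There are no detection calls, and precision is limited by the number of arrays.

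Of 53617 clusters, 16098 had 1 gene symbol, 0 several and 37519 none. Each symbol kept its brightest cluster, without a filter or renewed normalization. All 12 arrays were fitted in limma 3.58.1 (R 4.3.3) with 1 coefficient per group (lmFit, eBayes, 8 residual and 3.46 prior degrees of freedom). The departure from additivity is the combination change less the summed single changes. P-values are two-sided, and those of 3 arrays against 3 measure only the spread between samples, which may be technical. An exact permutation test cannot go below 0.1 here. On simulated data for the combination against vehicle (14884 genes), 61 of 100 genes shifted by 0.5 and 97 of 100 shifted by 1 were called, with 12 calls among 14684 unshifted genes. In the data 37.7% of all genes were called in this comparison, a far larger share than was shifted here. The adjusted cutoff depends on that share, so the simulated rates do not carry over to the data.

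The members and lists were chosen with earlier results of these data known. Besides the members, the genes named were, per list, up to 2 called higher and 2 called lower with the largest change with the combination and the brightest gene not called, plus the 3 closest protein-coding genes per member. LRP6 and MAML1 were named outside this rule. No sign was found that replicate numbers pair arrays: of 18 same-number pairs, 4 had deviations from group means that correlated above 0.1. Their r ran from -0.69 to 0.24, with a median of -0.05 against 0.01 for different numbers. Deviations from a mean of 3 arrays are tied to each other, so this check cannot exclude pairing.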

Additional observations from a re-analysis of the deposited data

Results flagged for a closer look

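JAG1 and SFRP1 stood out because the change made by JQ1 differed between presence and absence of panobinostat, by the interaction term in limma. For JAG1 the difference was -0.860: JQ1 gave 0.06 on top of panobinostat and 0.93 on its own. For SFRP1 it was -0.577: JQ1 gave -0.37 on top of panobinostat and 0.20 on its own. The SFRP1 call was lost in 8 of 12 fits with 1 array left out. With limma run over all clusters neither was called (adjusted p = 0.0554 for JAG1 and 0.115 for SFRP1).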

How the results depend on the processing

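Of 275 member values under settings other than leaving out an array, 255 kept their direction and side of the threshold. Only median centring and quantile normalization could change a member's log2 value, so under the other settings its direction was fixed in advance. Each member had 1 cluster, so averaging the clusters of a symbol left its values as they were. Under all of these settings the comparisons of DKK1 and JAG1 with vehicle, and of HEY1 and HEY2 with the combination against vehicle, kept direction and side. Quantile normalization turned the panobinostat against JQ1 values of DKK1 (0.0553) and HEY1 (0.0125) and the HEY2 departure (0.0216), which median centring also turned (0.000757). It brought HEY1 with JQ1 (-0.29) and JAG1 with the combination against JQ1 (0.237) past the threshold and ended the call of SFRP1 with the combination against JQ1 (-0.223). Leaving out genes under the 40th percentile called HEY1 (-0.301) and SFRP1 (0.204) with JQ1 and JAG1 with the combination against JQ1 (0.218). An intensity trend in the variance prior also called HEY1 (-0.301) and SFRP1 (0.204) with JQ1. Fitting only the groups compared called HEY1 with JQ1 (-0.301) and ended the HEY2 call with panobinostat (0.896). Moderating the variance and adjusting p over all clusters, which changes both at once, ended the calls of HEY1 with panobinostat (-0.315), SFRP1 with the combination against JQ1 (-0.244) and the departures of JAG1 (-0.86) and SFRP1 (-0.577), leaving 0 departures called by limma (in the fit over genes, 2 were called and 4 had an unadjusted p under 0.05, as had 13.7% of all genes). A replicate block called HEY1 with JQ1 (-0.301) and ended the SFRP1 departure (-0.577), leaving 1 departure called, with 48 called over all genes. It changed no other member call. In the deviations from group means 0 of 12 arrays correlated best with their own number, which does not exclude that the numbers pair the arrays. The cause of these shifts was not tested.

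With 1 array left out, panobinostat against JQ1 ranged from -0.106 to 0.0947 for DKK1 and from -0.0516 to 0.0222 for HEY1. HEY1 ranged from -0.352 to -0.262 with JQ1 and from -0.365 to -0.276 with panobinostat. HEY2 ranged from 0.595 to 1.09 with panobinostat, from 0.376 to 0.791 for the combination against panobinostat and from -0.203 to 0.292 for the departure. JAG1 with the combination against panobinostat ranged from -0.00584 to 0.106. SFRP1 ranged from -0.267 to -0.226 for the combination against JQ1 and from -0.61 to -0.516 for the departure, and the number of departures called from 1 to 2.

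Over all genes, 113 departures were called, against 313 with quantile normalization, 322 with the trend, 259 without dim genes, 48 with the block, 41 with median centring, 5 over all clusters and as few as 28 with 1 array left out (combination replicate 2). The array values come without detection calls, so signal over background is unknown. The combination against panobinostat gave 2184 calls, 1325 with only those groups and 1158 over all clusters, and JQ1 2627 and 1655. Of 60 list counts per setting, 5 moved by over 1.5 times with median centring, 5 with quantile normalization, 4 with the block and 11 without dim genes.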
